A study of Mus musculus with 126 samples.

Results

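Of 126 primary prostate tumors, 33 weighed less than 2.5 g, and 13 of these 33 small tumors had a log2 value of Dsp below 7. Those 13 tumors, called the Dsp-low small tumors here, are the subject of the report. They were chosen on 2 values, the tumor burden in the sample labels and the signal of the Dsp probe set on the same arrays. The 17 small tumors with Dsp at 8 or more, the Dsp-high small tumors, served as their counterpart, and 3 small tumors between 7 and 8 were set aside. The 86 larger tumors (2.5 g or more) with Dsp below 7 and the 4 larger tumors with Dsp at 8 or more were used for comparison. Every gene that varies together with Dsp had to differ between the Dsp-low and the Dsp-high small tumors, so that contrast is given as a description.

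The tumors came from the TRAMP x NOD/ShiLtJ F2 intercross, in which germline differences between 2 inbred backgrounds segregate. All groups were Tg+ F2 males carrying the PB-TAg transgene, in which the rat probasin promoter drives the SV40 T antigens in prostate epithelium, and no tumor of a transgene-negative male or normal prostate was among the 126 samples. Each male was killed at 30 weeks or at a humane endpoint, gave 1 frozen tumor and was measured on 1 Affymetrix Mouse Gene 2.0 ST array, so every tumor is a separate animal and no male was sampled over time. A lower level therefore means lower than in other tumors and not a change followed within a tumor.

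Dsp encodes desmoplakin, the protein that ties desmosomes, the rivet-like junctions of epithelial sheets, to keratin filaments. The T antigens bind and inactivate the Rb and p53 proteins, and tumors of TRAMP mice are known to range from well differentiated glandular growths to poorly differentiated carcinomas with neuroendocrine features. Neuroendocrine cells of the prostate store hormones in dense-core granules built with granins such as chromogranin A (Chga) and use the vesicle release machinery of neurons.

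Values were log2 signals, and 21882 probe sets with 1 gene symbol, Dsp left out, were tested with limma. A probe set was called where its Benjamini-Hochberg adjusted p was below 0.05. The array medians lay between 5.84 and 6.05. The lowest mean correlation with the other arrays, 0.853, belonged to N1202, a Dsp-high small tumor (tumors are named by mouse tag). All 13 Dsp-low small tumors had mean correlations between 0.951 and 0.966. The labels gave no batch, but the groups differed in tag number. With tags divided at 500, 800 and 1000, the 4 divisions from lowest to highest held 1, 0, 6 and 6 Dsp-low small tumors and 4, 6, 3 and 4 Dsp-high small tumors.

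Dsp ranged from 5.17 to 6.94 in the Dsp-low small tumors (median 5.75) and from 8.14 to 11.05 in the Dsp-high small tumors (median 10.29). The member nearest the limit was N953 at 6.94. The tumors just outside were N343 at 7.00, N1214 at 7.05 and N185 at 7.54, and the Dsp-high small tumor nearest the other limit was N590 at 8.14. The larger tumors below 7 covered the same range as the members, from 5.06 to 6.92 with a median of 5.55.

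Burden and Dsp were the values that chose the groups, so burden is described here without a test. In the Dsp-low small tumors it ranged from 0.25 to 2.2 g with a median of 1.46 g, against 0.1 to 1.43 g with a median of 0.46 g. The means were 1.38 ± 0.639 g (SD, n = 13) and 0.657 ± 0.442 g (SD, n = 17), a difference of 0.724 g. Of the 13 Dsp-low small tumors, 7 were heavier than every Dsp-high small tumor, while 4 weighed less than 1 g. Within divisions by tag the difference was 1.54 g for tags between 800 and 1000, 0.508 g above and 0.0075 g below 500, where there was 1 Dsp-low small tumor. The size of the difference followed the limit on burden, being 0.232 g with small defined as under 1.5 g and 1.19 g as under 3 g.

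Distant metastasis was recorded in 10 of 13 males with Dsp-low small tumors (76.9%, 95% Wilson interval 49.7 to 91.8%) and in 10 of 17 with Dsp-high small tumors (58.8%, 36 to 78.4%). This difference was within counting error (two-sided Fisher's exact test, p = 0.44). The 3 Dsp-low small tumors without distant metastasis were N919 at 1.46 g, N1130 at 0.25 g and N1407 at 2.2 g, so both ends of the weight range were among them.

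**Figure D1:**
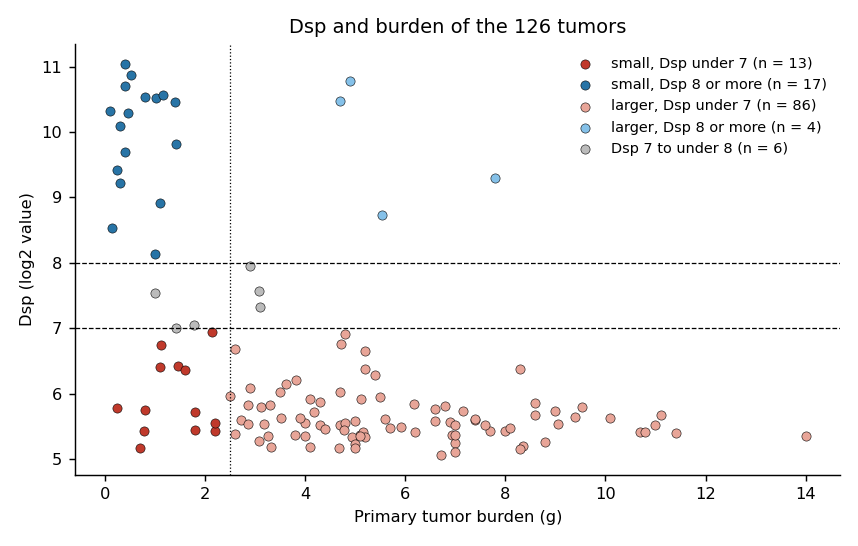
Log2 value of Dsp (vertical axis) against primary tumor burden in g (horizontal axis) for each of the 126 tumors, 1 point per tumor, colored by group, with dashed lines at Dsp 7 and 8 and a dotted line at 2.5 g. The 13 Dsp-low small tumors spread from 0.25 to 2.2 g, the 17 Dsp-high small tumors end at 1.43 g, and 86 larger tumors lie below 7.

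Between the Dsp-low and the Dsp-high small tumors, 8052 of 21882 probe sets (36.8%) were called, 4521 (20.7%) higher and 3531 (16.1%) lower in the Dsp-low small tumors. Differences of at least 1 on the log2 scale were seen for 1803 probe sets and of at least 2 for 335. The median difference over all probe sets was 0.04 and the median size 0.19. The values of the 2 groups did not overlap for 42 probe sets lower in the Dsp-low small tumors (0.192%) and for 1 that was higher (0.00457%). Because the groups were chosen on Dsp, these counts describe how much of the transcriptome goes with Dsp in small tumors and test nothing. With tag range as a block 5890 probe sets were called, with burden as a covariate 5278, without N1202 8228.

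Epithelial genes were lower nearly as a whole. Of 60 genes measured from 4 epithelial lists, 55 were called lower, 0 higher and 14 did not overlap between the groups. The median difference of the 60 was -1.92, against 0.04 over all probe sets. Of all probe sets 16.1% were called lower, 20.7% higher and 0.192% were lower without overlap. These shares are the background for the list counts of small tumors below as well. Among 20 genes of adherens and tight junctions 18 were lower, all except Cxadr (-0.08) and Nectin1 (-0.15). Of 11 desmosome genes 9 were lower, of 9 keratins 9, and of 20 epithelial regulators of splicing and transcription 19, with Grhl3 (-0.03) the exception.

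Cdh1 encodes E-cadherin, the adhesion molecule of epithelial adherens junctions. It ranged from 5.67 to 7.36 in the Dsp-low small tumors (median 6.04) and from 7.68 to 11.79 in the Dsp-high small tumors (median 10.68). The difference was -4.06 ± 0.35 (SE), or 16.7-fold, and no tumor of one group reached the other. A second Cdh1 probe set of lower signal differed by only -0.31. The 3 members with the highest Cdh1, N821 at 7.36, N919 at 7.35 and N953 at 7.17, were also the 3 with the highest Dsp.

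Esrp1 and Esrp2 encode the splicing factors that set epithelial isoforms of many transcripts. Esrp1 lay between 4.55 and 5.52 in the Dsp-low small tumors (median 4.77) and between 6.76 and 9.62 in the Dsp-high small tumors (median 8.81), a difference of -3.51 ± 0.26. Esrp2 differed by -2.86, from 5.41 to 6.64 against 6.82 to 10.03. Both were thus separated without overlap. Ehf, an ETS transcription factor of glandular epithelium, was at 4.55 to 6.17 (median 4.84) against 5.52 to 10.36 (median 9.3), and 3 of the 17 Dsp-high small tumors reached into the members' range. Grhl1, of the grainyhead family that maintains epithelial junctions, differed by -1.91.

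Krt8 and Krt18 form the keratin filament pair of luminal cells. Krt8 ranged from 6.92 to 8.42 in the Dsp-low small tumors (median 7.72) and from 9.07 to 11.63 in the Dsp-high small tumors (median 10.97), and the groups did not overlap. Krt18 differed by -3.56, with 1 of 17 Dsp-high small tumors inside the members' range (its second probe set differed by -0.41), Krt19 by -3.14 and Krt4, a keratin of stratified and ductal epithelium, by -3.97. Perp, a desmosomal membrane protein that p53 controls, differed by -2.95. Among the desmosomal cadherins, Dsg2 differed by -2.59 and Dsc2 by -1.15, whereas Dsc3 was not called (0.35 ± 0.6) and spread from 4.63 to 10.37 within the members.

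Epcam, the adhesion molecule of simple epithelia, stayed closer to the level of the Dsp-high small tumors. It ranged from 7.93 to 10.73 in the Dsp-low small tumors (median 9.52) and from 9.99 to 11.76 in the Dsp-high small tumors (median 11.24). The difference was -1.47 ± 0.23, or 2.78-fold, and 4 of 17 Dsp-high small tumors lay within the members' range.

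The upstream sequences of 2 genes that were lower, Epcam and Krt8, and of 2 granin genes that were higher, Chga and Chgb, are shown because they are the marker genes of the 2 programs in which the tumors differed. Each is the 250 bases before the annotated start in GRCm38.p6 as RefSeq gives it, read 5' to 3' on the gene's own strand. Capitals mark CACCTG on either strand (read as CAGGTG on the other), the E-box bound by Zeb and Snail repressors, and CAGCTG, a palindromic E-box bound by proneural factors. Epcam lies at chr17:87635729-87635978 (plus strand), Krt8 at chr15:102004343-102004592 (minus strand), Chga at chr12:102554691-102554940 (plus strand) and Chgb at chr2:132781392-132781641 (plus strand).
Epcam: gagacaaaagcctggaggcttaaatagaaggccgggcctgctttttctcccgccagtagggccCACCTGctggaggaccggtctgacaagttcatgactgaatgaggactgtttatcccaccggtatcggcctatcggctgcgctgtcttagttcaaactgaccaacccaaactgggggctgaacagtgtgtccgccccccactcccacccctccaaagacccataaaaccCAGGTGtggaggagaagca
Krt8: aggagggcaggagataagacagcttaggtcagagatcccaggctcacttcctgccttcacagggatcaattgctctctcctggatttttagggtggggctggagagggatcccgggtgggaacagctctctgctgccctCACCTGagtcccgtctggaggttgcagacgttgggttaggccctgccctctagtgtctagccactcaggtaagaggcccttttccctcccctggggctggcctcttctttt
Chga: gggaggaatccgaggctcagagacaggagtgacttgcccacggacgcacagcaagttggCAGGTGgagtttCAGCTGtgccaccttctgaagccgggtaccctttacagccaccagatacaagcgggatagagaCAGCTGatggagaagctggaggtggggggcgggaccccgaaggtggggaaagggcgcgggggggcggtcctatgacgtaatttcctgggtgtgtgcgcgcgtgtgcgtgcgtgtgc
Chgb: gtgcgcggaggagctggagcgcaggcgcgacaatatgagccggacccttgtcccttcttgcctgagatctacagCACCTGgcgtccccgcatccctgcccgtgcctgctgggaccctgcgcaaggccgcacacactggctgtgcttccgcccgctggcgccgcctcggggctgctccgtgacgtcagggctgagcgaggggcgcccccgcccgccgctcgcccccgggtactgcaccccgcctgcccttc
Epcam held CACCTG at 2 positions, Krt8 at 1, Chga at 1 and Chgb at 1, and CAGCTG was found in Chga alone among the 4, at 2 positions. CACCTG was present in 17.2% of 32851 promoter windows of this length and in 18 of 40 windows (45%) of the epithelial genes called lower, 29 of the 55 having an entry. It was present in 11 of 67 windows (16.4%) of the neuroendocrine genes called higher, 38 of 47 having an entry. CAGCTG was present in 13% of all windows, in 5 of the 40 (12.5%) and in 21 of the 67 (31.3%). Some genes gave several windows, so windows are not independent units. By gene, CACCTG was present in 16 of the 29 and 9 of the 38, and CAGCTG in 5 and 18. The share by gene over all promoters is not given here. A match describes the letters only, and binding was not measured.

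The prostate-specific program was lower as well. Of 13 secretory proteins 11 were called lower, with a median difference of -2.52, and none higher. 9530002B09Rik, a gene of the prostate secretory list, had the largest difference of any gene. It ranged from 3.5 to 8.3 in the Dsp-low small tumors (median 3.89) and from 3.77 to 12.38 in the Dsp-high small tumors (median 11.36), a difference of -5.5 ± 0.8. The members N919 (8.3), N1130 (8.25) and N1430 (7.21) were above the other 10, and 3 of 17 Dsp-high small tumors were within the members' range. Pbsn encodes probasin, whose promoter drives the transgene. It was at 3.39 to 5.56 (median 3.58) against 3.45 to 11.51 (median 6.3), a difference of -2.52. Msmb, a secreted protein of prostate fluid, differed by -3.89, and Spink1, a trypsin inhibitor, by -2.28.

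Of 12 regulators of the prostate lineage 9 were lower. Tmprss2, an androgen-regulated membrane protease, differed by -3.19, and Hoxd13, a homeobox factor of the urogenital tract, by -2.08. Foxa1, the pioneer factor that opens chromatin for the androgen receptor, was not called: it lay between 10.31 and 11.46 in the Dsp-low small tumors and between 9.17 and 11.91 in the Dsp-high small tumors, a difference of -0.09 ± 0.24. Hoxb13, a homeobox factor of the prostate, was at 0.58 and not called either.

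The other genes with the largest differences toward lower levels were Papss2 (-4.52), which makes the sulfate donor of sulfotransferases, Tc2n (-4.49), Ceacam1 (-4.46), a cell adhesion molecule, Obp2a (-4.44), an odorant-binding lipocalin, Mme (-4.39), the membrane peptidase neprilysin, Cdcp3 (-4.38), Tspan1 (-4.33), a tetraspanin, Scgb2b27 (-4.24), a secretoglobin, and Mmp7 (-4.14), the epithelial metalloprotease matrilysin. For some of them single Dsp-low small tumors were high: Mmp7 reached 10.31 against a median of 6.48 and Cdcp3 10.6 against 5.48. For others the group was uniformly low, as for Tspan1 with values from 3.59 to 5.04.

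Genes of organs next to the prostate differed in the same direction. Of 8 seminal vesicle secretory proteins 7 were called lower (median -2.21), Svs5 ranging from 5.2 to 11.54 in the Dsp-low small tumors (median 6.21) and from 5.2 to 12.64 in the Dsp-high small tumors (median 12.32). Of 6 uroplakins, the plaque proteins of bladder epithelium, 3 were lower, among them Upk1b (-3.42) and Upk1a (-3.09). Upk1b was highest among the members in N953, at 10.2 against a median of 6.65. Of 8 skeletal muscle genes 7 were lower (median -1.33), with list means from 5.16 to 5.83 in the Dsp-low small tumors and from 5.31 to 10.74 in the Dsp-high small tumors. The part of neighboring tissue in these values was not tested.

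Neuroendocrine genes were higher. Of 71 genes measured from 4 lists, 47 were called higher and 1, Rfx6 (-0.75), lower, and the median difference was 0.99. Of all probe sets 20.7% were called higher and 16.1% lower. By role, 11 of 16 granins, prohormone processing enzymes and related markers were higher, 10 of 23 neuroendocrine and proneural transcription factors, 15 of 19 genes of synaptic vesicle release and 11 of 13 neural splicing and RNA-binding regulators. The groups overlapped for all 71, but among all 21882 probe sets only 1 (0.00457%) was higher without overlap.

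Chga ranged from 9.97 to 11.29 in the Dsp-low small tumors (median 10.82) and from 6.45 to 11.44 in the Dsp-high small tumors (median 9.91). The difference was 1.45 ± 0.43, or 2.73-fold, but the shapes of the groups differed: the 13 members lay within a narrow band, while 9 of the 17 Dsp-high small tumors lay below it, 7 within it and 1 above. Chgb, the second chromogranin, was 2.14 higher, from 9.07 to 10.88 against 4.7 to 10.09, with 11 of 17 below the members. Scg2, a further granin, was not called (0.82 ± 0.57), with values from 6.52 to 11.04 among the members themselves.

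Syt1, the calcium sensor of vesicle fusion, ranged from 10.72 to 11.78 in the Dsp-low small tumors (median 11.31) and from 6.42 to 11.31 in the Dsp-high small tumors (median 9.77), and 11 of 17 lay below every member. Snap25, a SNARE protein of the fusion complex, was 1.62 higher, whereas Syt4 was not called (-0.27). The Elavl genes encode neuronal RNA-binding proteins that stabilize transcripts. Elavl4 was 2.08 higher, from 8.76 to 9.83 against 4.56 to 9.29, Elavl3 1.66 and Elavl2 1.18 higher.

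Among the transcription factors Sox11, of the neuronal SoxC group, was 1.8 higher, from 9.58 to 10.4 in the Dsp-low small tumors and from 5.39 to 10.55 in the Dsp-high small tumors. Insm1, a zinc finger factor of neuroendocrine differentiation, was at 7.64 to 9.01 (median 8.23) against 6.72 to 8.65 (median 7.47), a difference of 0.75. Neurod4, a proneural bHLH factor, was 1.75 higher but varied among the members from 4.61 to 10. Neurod1 was at 4.38 to 5.11 in the Dsp-low small tumors and was not called (0.14).

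The largest differences toward higher levels were those of Asb4 (3.44), Ankrd45 (2.89), Fam135b (2.57), Nmu (2.42), Snhg14 (2.37), Pax9 (2.32), Lrrtm4 (2.3), Frrs1l (2.29), Gdap1 (2.27) and Kcnh5 (2.25). Asb4, an imprinted gene for a subunit of ubiquitin ligases, ranged from 9.51 to 11.57 in the Dsp-low small tumors (median 10.36) and from 4.38 to 10.62 in the Dsp-high small tumors (median 6.43), where 15 of 17 lay below every member. For Ankrd45 16 of 17 did, from 5.0 to 8.14 against 7.8 to 9.5 in the members. Nmu encodes the neuropeptide neuromedin U, Pax9 a paired-box factor of foregut and skeletal development, Lrrtm4 a synaptic adhesion protein, Gdap1 a mitochondrial protein of neurons and Kcnh5 a potassium channel.

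Cell cycle genes were higher: 27 of 28 E2F targets and mitotic genes were called, with a median of 0.8. Top2a, the topoisomerase of replicating cells, ranged from 11.01 to 11.49 in the Dsp-low small tumors (median 11.31) and from 8.42 to 11.42 in the Dsp-high small tumors (median 10.41). The difference was 0.98 ± 0.25, and 12 of 17 Dsp-high small tumors lay below every member. Mki67, the proliferation marker Ki-67, was 0.53 higher, Birc5, which encodes survivin, 1.34, and Aurka, the mitotic kinase, 1.17. Of 14 Polycomb and DNA methylation genes 9 were higher, Tet1, a 5-methylcytosine oxidase, by 1.3 and Ezh2, the Polycomb methyltransferase, by 0.55. On the Rb and p53 axis 4 of 11 genes were higher and 4 lower, next to 20.7% and 16.1% of all probe sets. Rb1 was at 0.41, its relative Rbl2 at -0.67 and cyclin D1 (Ccnd1) at -1.36.

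Of 10 regulators of the transition from epithelium to mesenchyme 2 were higher and 2 lower, shares near the 20.7% and 16.1% of all probe sets. The higher ones were Cdh2 (1.5), which encodes N-cadherin of neural and mesenchymal cells, and Zeb1 (0.52), a repressor of epithelial genes. The lower ones were Snai2 (-0.83) and Snai3 (-0.27), of the Snail family. Vim, the mesenchymal filament vimentin, ranged from 9.97 to 11.91 in the Dsp-low small tumors and from 10.09 to 12.16 in the Dsp-high small tumors and was not called (-0.09). Zeb1 ranged from 7.04 to 9.04 against 7.16 to 8.44, so that all 17 Dsp-high small tumors lay within the members' range.

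For the counts that follow, 20.7% of all probe sets were higher and 16.1% lower. Of 19 Notch pathway genes 8 were higher and 5 lower (median 0.04). The ligands Dll3 (0.42) and Dll4 (0.65) were higher and the receptor Notch2 lower (-1.5). Of 14 metalloproteases and inhibitors 3 were higher and 5 lower. Of 16 hypoxia and glycolysis genes 5 were higher and 2 lower, among them Hk2, a hexokinase, at -1.48. The 3 of 14 higher and the 2 of 16 lower were near or below the shares of all probe sets. Of 11 genes measured from a list that joined some, not all, of the study's candidates in this cross with Mycn, Aurka and Rb1, 6 were higher and 3 lower. Cxcl14, a chemokine, differed by -1.23 and Lpcat2, a lysophospholipid acyltransferase, by -1.0, while Itgax, the integrin CD11c, was not called (-0.02). The study chose its candidates on these samples, so they are no independent evidence.

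Markers of other cell types were lower or not called: over 9 lists, 42 of 92 genes were lower and 0 higher. All 10 smooth muscle genes were lower (median -1.3), among them Myh11 (-2.16), Des (-2.06) and Cnn1 (-2.36), which encode smooth muscle myosin, desmin and calponin. Of fibroblast matrix genes 8 of 15 were lower, of endothelial genes 5 of 13 and of T cell genes 8 of 14. The 1 of 15 macrophage and 1 of 9 B cell genes called lower were smaller shares than the 16.1% of all probe sets. Of 13 antigen presentation genes 10 were lower and of 16 interferon response genes 9. The smooth muscle list mean ranged from 6.62 to 9.1 in the Dsp-low small tumors (median 6.91) and from 6.74 to 10.2 in the Dsp-high small tumors (median 8.66), and 9 of 17 Dsp-high small tumors lay inside the members' range. In bulk tissue, fewer cells of a type and less RNA per cell cannot be told apart. The part of these markers in the other differences was not tested.

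One member, N821, had the highest mean of the smooth muscle, fibroblast, endothelial, macrophage, T cell, B cell and adipocyte lists and of the metalloproteases among the 13. It also had the lowest correlation of any member with the mean of the larger Dsp-low tumors. Without it 8230 probe sets were called.

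**Figure D2:**
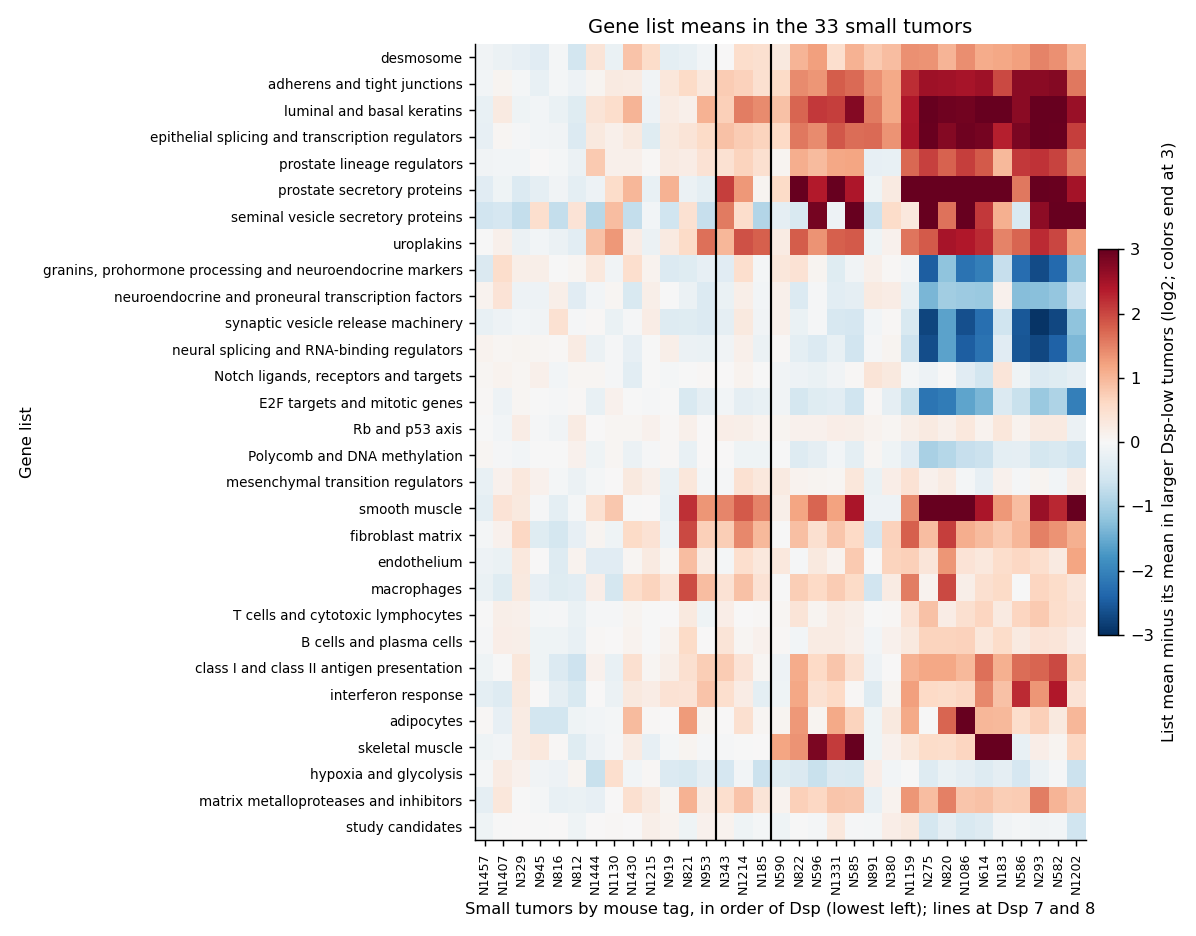
Mean log2 level of each gene list in each of the 33 small tumors, minus the mean of that list in the 86 larger Dsp-low tumors (color, ending at 3 in either direction), with tumors ordered by Dsp from left to right and lines at Dsp 7 and 8. The 13 Dsp-low small tumors at the left are pale in most lists, epithelial lists turn red to the right of the lines, and neuroendocrine lists turn blue in a subset of the Dsp-high small tumors only.

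To see whether the Dsp-low small tumors differed from large ones, they were compared with the 86 larger tumors that also had Dsp below 7. No probe set was called (0 of 21882, 0%), the smallest adjusted p being 0.203 (limma), while 1497 (6.84%) had an unadjusted p below 0.05. The 95% interval of the difference lay within 0.5 of 0 on the log2 scale for 20245 probe sets (92.5%) and within 1 for 21715 (99.2%). The estimates ran from -0.89 to 1.43. Against tumors of 7 g or more, and without N821, 0 probe sets were called as well.

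In whole profile, all 13 Dsp-low small tumors resembled the larger Dsp-low tumors more than the Dsp-high small tumors. Over the tested probe sets their correlation with the mean of the 86 was 0.968 to 0.990, and with the mean of the 17 it was 0.929 to 0.953. These coefficients are descriptive, since the groups share the limit on Dsp and the points are genes. Of the 17 Dsp-high small tumors 3, N590, N891 and N380, also correlated better with the larger Dsp-low tumors.

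No epithelial gene passed, but those with a low unadjusted p were higher in the small tumors. Dsp itself was higher there, with a mean of 5.94 against 5.64 in the 86 larger Dsp-low tumors. With log2 Dsp as a covariate 0 probe sets were called, and the epithelial genes in that fit are not given here. The part of Dsp in the epithelial differences was not tested. Cdh1 ranged from 5.51 to 7.41 in those 86 tumors (median 5.87), and the members were 0.31 higher (95% interval 0.03 to 0.58, unadjusted p = 0.0303, limma adjusted p = 0.657). Esrp1 ranged from 4.45 to 5.45 (median 4.69), with a difference of 0.15 (0.03 to 0.28, adjusted p = 0.606), and Krt8 from 6.63 to 9.19 (median 7.3), with a difference of 0.23 (-0.07 to 0.52). Of 60 epithelial genes 13 had an unadjusted p below 0.05, all 13 higher in the Dsp-low small tumors, next to 6.84% of all probe sets in either direction. Of 71 neuroendocrine genes 1 was below that limit. Chga differed by 0.01 (-0.24 to 0.25) and Chgb by -0.24 (-0.55 to 0.07).

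Smooth muscle genes and uroplakins leaned toward the small tumors without passing: 7 of 10 and 4 of 6 had an unadjusted p below 0.05, all higher in the Dsp-low small tumors. Of all probe sets 6.84% did in either direction. Medians of the list means were close, at 6.91 against 6.79 for smooth muscle and 6.09 against 5.84 for uroplakins. Above every larger Dsp-low tumor lay N821 for smooth muscle (9.1), and N953 (7.57) and N1130 (7.23) for uroplakins. Cnn1 was 0.73 higher (0.12 to 1.35, limma adjusted p = 0.618) and Upk1b 0.81 higher (0.3 to 1.32, adjusted p = 0.441). The highest members were N821 for Cnn1, at 10.75, and N953 for Upk1b, at 10.2. Mitotic genes leaned the other way, with 6 of 28 lower at an unadjusted p below 0.05. Birc5 differed by -0.19 (-0.3 to -0.08, adjusted p = 0.366) and Top2a by -0.14 (-0.22 to -0.05, adjusted p = 0.397).

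**Figure D3:**
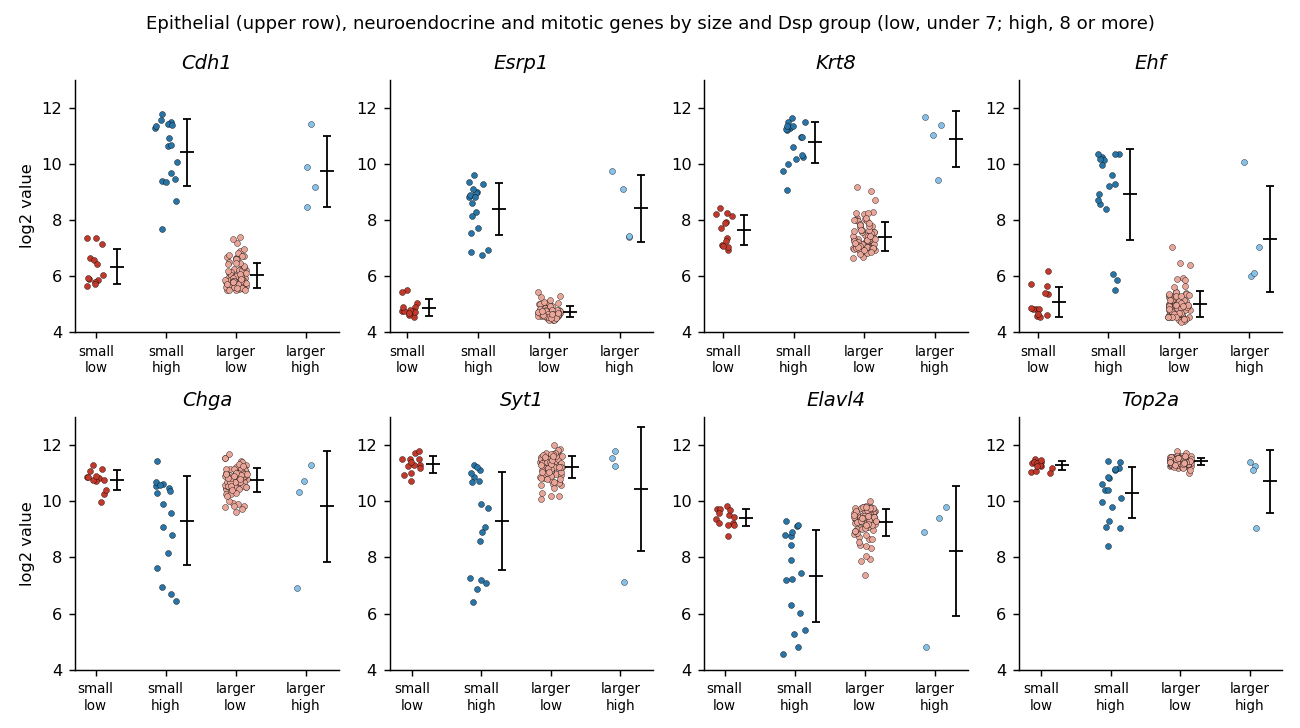
Log2 values (vertical axis) of 4 epithelial genes (upper row) and of 3 neuroendocrine genes and Top2a (lower row) in the 13 small and 86 larger tumors with Dsp under 7 (low) and the 17 small and 4 larger tumors with Dsp 8 or more (high), 1 point per tumor, with bars for mean and SD. The 2 low groups overlap throughout, and Chga, Syt1, Elavl4 and Top2a reach far lower values in the small high group.

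The same Dsp limits were then applied to the larger tumors, which the choice of the members had not used. Since Dsp split these tumors too, the contrast is again descriptive, and its upper group held only 4 tumors. With limma 4084 probe sets (18.7%) were called, 1906 higher and 2178 lower under Dsp 7. Of the 8052 probe sets called in small tumors 7294 (90.6%) differed in the same direction in larger ones. The same share among probe sets not called is not given here, so the 90.6% has no background beside it. In that direction 3140 were called in larger tumors, which is 39% of the calls in small tumors and 76.9% of those in larger ones. By the rank test 455 probe sets were called in larger tumors, 453 of them also called by limma.

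Cdh1 differed by -3.7 in the larger tumors under Dsp 7, Esrp1 by -3.69, Krt8 by -3.47 and Epcam by -1.58, next to -4.06, -3.51, -3.13 and -1.47 in small tumors. Of the 60 epithelial genes 49 were called lower and 0 higher. Of the 71 neuroendocrine genes 29 were higher and 4 lower, with a median of 0.41 next to 0.99 in small tumors. Of all 21882 probe sets, 1906 were higher and 2178 lower in this contrast. The 4 of 71 lower were a smaller share than that. For Chga the difference rested on 1 tumor. In the 4 larger tumors with Dsp at 8 or more, N371, N641, N1234 and N1423, Chga was 10.73, 11.28, 10.34 and 6.92. The other three were within the members' range for Chga, N1423 being far below. In each neuroendocrine list the mean of N1423 was also far below those of the other three. For synaptic vesicle release it was 6.76 against 8.972 to 9.492, next to a median of 9.19 in the larger Dsp-low tumors. For the transcription factors it was 5.826 against 7.388 to 7.655, the others thus lying above the larger Dsp-low median of 7.16. The counts of 29 and 4 included N1423. Without N1423 the calls fell to 915, and the Chga difference went from 0.93 to -0.04.

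The difference between the 2 contrasts was tested as an interaction in limma, and 218 probe sets (0.996%) were called, among them 1 of the 71 neuroendocrine and 2 of the 60 epithelial genes. Obp2a differed by -4.44 in small and by -0.65 in larger tumors (interaction -3.78 ± 1.02, adjusted p = 0.0427), and Rnase1, a secreted ribonuclease, by -2.82 and -0.2 (interaction -2.62 ± 0.53, adjusted p = 0.00247). The values in larger tumors turned on single tumors: without N641 Obp2a differed by 0.89 there, and without N1423 Rnase1 differed by 0.17. The Obp2a interaction did not pass without N371 (limma adjusted p = 0.135) or without N1234 (adjusted p = 0.192), while that of Rnase1 passed whichever of the 4 was left out. In the opposite direction Tmem45b, a membrane protein, differed by -1.75 and -3.45 (interaction 1.7 ± 0.31, adjusted p = 0.000772). Without N1423, 3268 probe sets were called in place of 218, and without each of the other 3 larger tumors between 93 and 200, so the count depended on which larger tumors stood for the group. None of Cdh1, Esrp1, Krt8, Epcam and Chga passed, with interactions from -0.37 to 0.52. These values and the counts by list included N1423, on which the Chga difference in larger tumors rested. They therefore do not show that the neuroendocrine contrast was alike at both sizes.

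**Figure D4:**
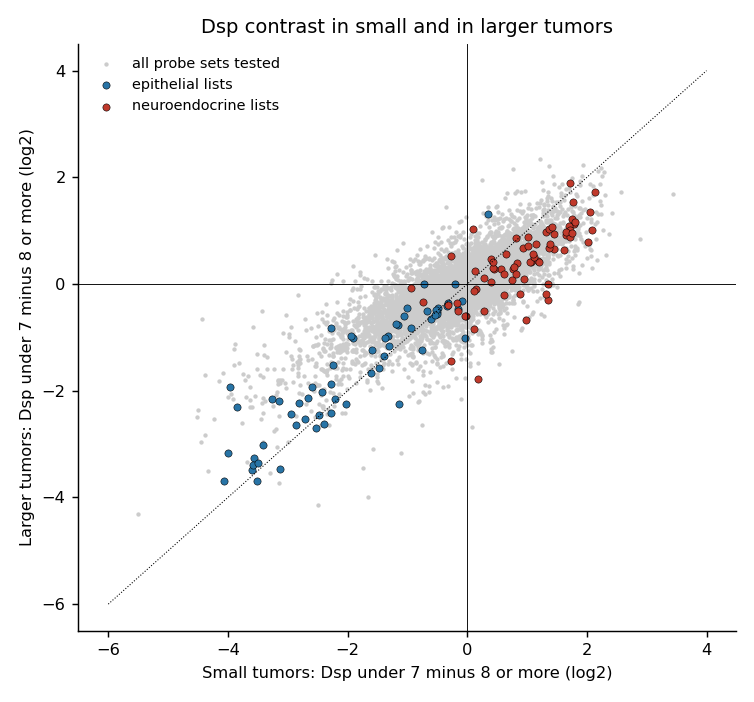
Difference between tumors with Dsp under 7 and with Dsp 8 or more on the log2 scale in small tumors (horizontal axis, 13 against 17) and in larger tumors (vertical axis, 86 against 4), 1 point per probe set, with the epithelial and neuroendocrine lists colored and a dotted line of equal difference. Epithelial genes lie near the dotted line at the lower left, and most neuroendocrine genes lie below it at the right.

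Among the 13 Dsp-low small tumors the expression of most genes varied little. The median SD over 20639 genes was 0.23, next to 0.216 among the 86 larger Dsp-low tumors, and 382 genes had an SD above 1. The 5 genes of largest SD were 2610524H06Rik, Calcr, Pcsk1, Svs5 and Gpm6a. For 2610524H06Rik, 11 members lay between 9.75 and 10.61 while N1130 was at 3.51 and N1407 at 4.54. Calcr, the calcitonin receptor, ranged from 5.38 to 12.48 (median 7.22), highest in N1430. Pcsk1, a prohormone convertase, ranged from 5.05 to 11.33 (median 7.47), highest in N1407. Gpm6a, a neuronal membrane glycoprotein, ranged from 5.52 to 11.48 (median 8.11). Svs5, described above, was highest in N1130. No gene followed burden within the group: 0 of 21882 probe sets (0%) were called for a slope per g in limma, and 443 had an unadjusted p below 0.05.

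Distant metastasis divided the members 10 to 3, and 12 probe sets (0.0548%) were called between these groups by limma, 8 lower and 4 higher with metastasis. Sstr2, a somatostatin receptor of neuroendocrine cells, ranged from 6.07 to 7.33 in the 10 members with metastasis (median 6.77) and was 10.24 in N919, 9.44 in N1130 and 8.79 in N1407. The difference was -2.78 ± 0.304 (SE, limma adjusted p = 0.00644). The 2 groups did not overlap, but the gene was chosen by its difference. The share of all probe sets without overlap between these groups is not given here. Inpp4b, a phosphoinositide phosphatase, was at 5.37 to 6.67 (median 5.69) with metastasis and at 8.21, 7.51 and 8.76 in N919, N1130 and N1407, a difference of -2.33 ± 0.291 (adjusted p = 0.0151). Fzd7, a Wnt receptor, differed by -1.95 (adjusted p = 0.0445), with values of 8.37, 7.52 and 7.64 without metastasis against 5.24 to 7.21 with it.

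Also lower with metastasis were 8430431K14Rik (-1.6), Slc26a4 (-1.2), an anion transporter, 5033404E19Rik (-1.03), P2rx3 (-0.97), an ATP-gated channel of sensory neurons, and Gse1 (-0.74). Higher were Sh3d19 (1.35), Nipal3 (1.28), Necab1 (1.26), a neuronal calcium-binding protein, and Arhgap18 (1.09). Necab1, for example, was at 10.97 to 11.68 in the 10 members with metastasis and at 9.87, 10.16 and 10.25 in N919, N1130 and N1407.

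The count of calls depended on single tumors. Without N919 216 probe sets were called, without N1130 2 and without N1407 4. By the methods' t-test with Benjamini-Hochberg adjustment 0 of 21882 were called (2275 at an unadjusted p below 0.05). A rank test of 10 against 3 tumors has a smallest exact p of 0.00699, which 3061 probe sets would have to reach to pass, so it could not bear on the 12. In the 86 larger Dsp-low tumors, 60 with and 26 without distant metastasis, 0 were called, with 594 at an unadjusted p below 0.05, and 5 of the 12 genes had the direction seen in the members. Sstr2 was 7.41 ± 0.947 with and 7.19 ± 0.997 without metastasis there (SD, n = 60 and 26), a difference of 0.22 (unadjusted p = 0.332). Of the 12, Nipal3 alone had an unadjusted p below 0.05 in larger tumors, in the opposite direction (-0.25, p = 0.0364). Whether the metastasis effect differs between sizes was not tested.

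**Figure D5:**
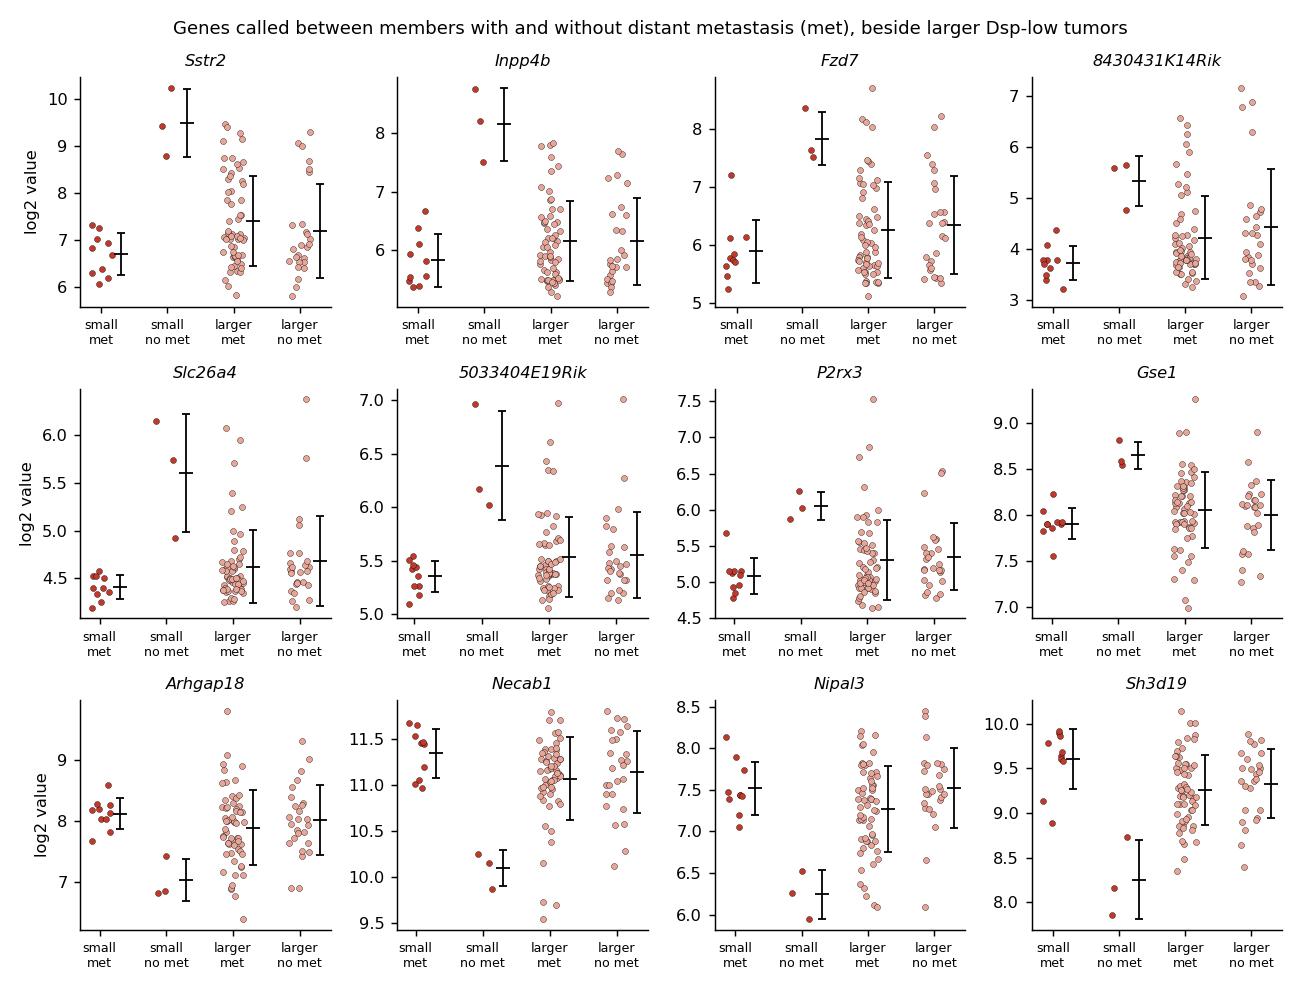
Log2 values (vertical axis of each panel) of the 12 genes called between Dsp-low small tumors with (10) and without (3) distant metastasis, next to the larger Dsp-low tumors with (60) and without (26), 1 point per tumor, with bars for mean and SD. The 2 small groups are apart in these panels, whose genes were chosen by that difference, and the 2 larger groups cover each other's range.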

How the data were processed

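The authors deposited log2 values of all 126 arrays, made in Partek by RMA (background correction, quantile normalization and summary over probes). The version of Partek was not given in the sources used here. RMA removes overall shifts between arrays, so a difference is relative to the other probe sets of an array, and low signals are compressed. Depth has no counterpart on arrays, where precision is limited by the number of tumors. RNA was extracted from frozen tumors, and the labels and the methods name different reagents for this.

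Probe sets were named by the platform annotation. Of 41345, 23521 had 1 symbol, 1820 several and 16004 none. Those with 1 symbol and a mean at or above the 10th percentile (3.42) were kept, Dsp left out, which gave 21882. Burden and distant metastasis came from the labels and groups from burden and the single Dsp probe set. limma 3.58.1 (lmFit and eBayes, R 4.3.3) was fitted to the arrays of each comparison and checked on simulated data. Metastasis was tested by Fisher's exact test in Python 3.11.15 with scipy 1.17.1. Since every tumor is 1 male, p-values measure the spread between males. A gene with several probe sets was represented by the one of highest mean.

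The members and gene lists were chosen with earlier results of these data known. Genes were named by rule: the 10 largest positive and negative differences among calls between small tumors, the first 3 members and the member with the largest difference of each of 31 lists, the largest calls between small and larger Dsp-low tumors (none), the 5 largest interactions in each direction, the 5 largest SDs among members, and a list joining some of the study's candidates with Mycn, Aurka and Rb1. The genes called by metastasis (all 12) and members of lists given as exceptions were named after their values were seen. The list of red blood cell genes kept 1 tested gene (Slc4a1, 0.17, not called), and adipocyte genes were lower in 2 of 7.
Alternatives covered the filter, centring and quantile normalization of arrays, the limits on burden and Dsp, tag divisions, covariates, a rank test (exact where values were not tied) and the methods' t-test, and single tumors left out. Those that leave out N821 or single larger or non-metastatic tumors, that use tumors of 7 g or more, or that repeat the metastasis contrast in larger tumors, were added after seeing the data.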

Additional observations from a re-analysis of the deposited data

Results flagged for a closer look

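In the 10 Dsp-low small tumors with distant metastasis, 1 tumor stood apart from the others for Fzd7, its gap to the nearest being 0.548 of the group's range, and 1 for P2rx3, with a gap of 0.581. In the 4 larger tumors with Dsp at 8 or more, the gap was 0.909 of the range for Obp2a, where N641 was at 10.2 and the other three between 3.71 and 4.3, and 0.844 for Syp, which encodes the vesicle protein synaptophysin, where N1423 was at 6.29 and the others between 8.74 and 9.2. Chance sets a tumor apart in this way in about 1 of 20 groups, and 4 of 27 groups examined were so marked.

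The contrast between low and high Dsp differed between small and larger tumors for 218 probe sets in the interaction test of limma. In the named genes it was more negative in small tumors for Obp2a (-3.78), Tcaf3 (-2.77), Defb50 (-2.68), Rnase1 (-2.62) and Agr2 (-2.41) and more positive for Pkd2l1 (2.05), Lcn12 (2.04), Gm14322 (1.73), Tmem45b (1.7) and Cntn5 (1.69). Lcn12, a lipocalin, was at 12.71 in N1423 and 8.24 in N641, next to 6.18 in N1234 and 6.44 in N371. With N1423 left out, the interactions of all 10 named genes, Lcn12 among them, were still called in the same direction. Only 5 of the 10 were still called without N641, 7 without N371 and 4 without N1234. With small defined as under 1.5 g, 6 of the 10 were.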

How the results depend on the processing

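The count of 8052 between the small tumors became 4560 with small defined as under 1.5 g and 5278 with burden as a covariate, and lay between 5890 and 9786 under the other settings. Among 147 named genes the result was weaker for 32 under 1.5 g. It was weaker for 25 and stronger for 3 with tag divisions as a block. With burden as a covariate it was weaker for 21 and stronger for 2. The burden difference of 0.724 g became 0.232 g under 1.5 g. The comparison of small with larger Dsp-low tumors and that with burden gave 0 under every setting tried. In larger tumors the rank test gave 455 in place of 4084, and leaving out each Dsp-high tumor gave 915 (without N1423) to 4907. Chga there ranged from -0.04 (without N1423) to 1.42. The 218 interactions became 63 with small under 1.5 g, and 93 (without N1234) to 3268 (without N1423) with each larger Dsp-high tumor left out. The rank test was not run for the interaction.

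The 12 calls by metastasis became 7 with arrays centred, 6 with tag divisions as a block, 0 by the methods' t-test and by the rank test (which 10 against 3 tumors cannot pass), and 2 (without N1130) to 216 (without N919) with each tumor without metastasis left out. In larger Dsp-low tumors 0 were called. The sign was opposite for Sstr2 (0.22), Inpp4b (0.002), Gse1 (0.05), Arhgap18 (-0.13), Necab1 (-0.07), Nipal3 (-0.25) and Sh3d19 (-0.06). Of these only Nipal3 had an unadjusted p below 0.05 (limma, p = 0.0364), and the differences of the others could not be told from 0. The cause of these changes was not tested. The number of tumors, 3 or 4 in the smallest groups, limits both contrasts, and signals near the lower end of the scale carry little information on differences. No paired analysis was possible because each male gave 1 tumor and the labels share no replicate numbers between groups.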
